A study of Mus musculus with 24 samples.

Results

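The subcortical maternal complex is described here by 6 genes, Nlrp5, Ooep, Tle6, Khdc3, Padi6 and Nlrp2, which were taken by name from the 16572 gene names of an RNA-seq table of mouse oocytes. Each of the 6 names has 1 row. The complex is an assembly of oocyte proteins that lies beneath the cell membrane of the egg and of the outer cells of the early embryo. Its mRNAs are made while the oocyte grows, the proteins are carried into the embryo, and loss of core members in the mother stops development during the first cleavages. NLRP5 (also called MATER), OOEP (FLOPED) and TLE6 form the core, KHDC3 (FILIA) binds to it, PADI6 is needed for the cytoplasmic lattices of the egg, and NLRP2 is a further NLR-family protein found with the complex.

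Oocytes were isolated from ovaries of mice at day 7 after birth and cultured outside their follicles, and theca-like cells were present early in the culture. The labels give the strain as C57BL/6 Barb, whereas the study's text names an F1 on a C57BL6/Babr background in its results and a cross with SV129 in its methods. Class IV is the largest size class, labelled as 60 to 70 µm for both conditions, although the methods give the IV 20% O2 oocytes a slightly smaller range. The IV 20% O2 oocytes grew for 14 days in 20% O2 with medium changes every 48 h, and the IV 5% O2 oocytes for 9 days in 5% O2 with changes every 24 h. Oxygen, culture time and feeding therefore cannot be told apart.

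Each condition had 2 RNA-seq libraries of pooled oocytes, but the table gives 1 pooled column per condition, so the spread between libraries is unknown and no p-value could be had. The values are reads on a gene per 1000000 reads in a column (RPM), from 132185258 reads for IV 5% O2 and 40875359 for IV 20% O2. Intervals are at 95%, by the exact Clopper-Pearson method on the recovered reads. Without molecular identifiers they cover counting error only, they refer to the ratio of RPM with no pseudocount, and they compare libraries, not conditions. Where 2 values stand together, that of 5% O2 comes first. In pooled cells, fewer oocytes that make an mRNA and less of it per oocyte cannot be told apart. The 10 oocyte markers were all present, and under 5% O2 8 were lower and 2 higher (Nobox at a log2 difference of 0.87 and Dppa3 at 0.03). Of the 10, 3 (Zp2, Zp3 and Kit) were at least 2-fold lower, beside 9.22% of all genes tested. None was at least 2-fold higher, beside 18.7%. The 10 summed to 7815 RPM under 5% O2 against 11747 RPM under 20% O2. Of 12 theca and stroma markers 8 are in the table, and their summed level was 34.4 RPM under 5% O2 against 2.69 RPM under 20% O2, where Col1a2, Dcn and Vim had no reads. Of these 8, 5 reached the mean of 1 RPM used as a filter on low values (Cyp11a1, Star, Dcn, Postn and Vim), 4 of them only through the 5% O2 column, so no count of calls is given. The 7 granulosa markers in the table summed to 42.9 and 29.8 RPM, with Fshr at 0 under 5% O2 and Inha at 0 under 20% O2. The 2 macrophage markers in the table summed to 16.5 and 21.1 RPM, and the 3 endothelial markers to 61.0 and 36.1 RPM, with Kdr at 0 under 20% O2. Most of the endothelial sum was Pecam1, with 45.9 and 32.7 RPM. The part of such cells in the differences below was not tested.

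The start regions of 4 members are shown. Those of Padi6 and Khdc3 were chosen because these members lie at opposite ends of the differences between conditions, and those of Ooep and Nlrp5 because, with that of Padi6, they hold a homeobox motif. Each runs from 250 bases before to 50 after a RefSeq start on GRCm38.p6, 5′ to 3′ on the strand of the gene. Capitals mark CANNTG (the E-box, bound by basic helix-loop-helix factors such as FIGLA) and TAATTG or TAATTA (bound by the homeobox factor NOBOX), searched on both strands. The windows are chr4:140742594-140742893 on the minus strand for Padi6, chr9:73102148-73102447 on the plus strand for Khdc3, chr9:78378539-78378838 on the minus strand for Ooep and chr7:23385639-23385938 on the plus strand for Nlrp5.
Padi6: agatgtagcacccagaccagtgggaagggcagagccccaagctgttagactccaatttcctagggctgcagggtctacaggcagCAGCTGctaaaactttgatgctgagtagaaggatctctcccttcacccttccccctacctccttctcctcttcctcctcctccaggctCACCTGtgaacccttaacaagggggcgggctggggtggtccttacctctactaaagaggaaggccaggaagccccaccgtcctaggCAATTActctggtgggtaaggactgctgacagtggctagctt
Khdc3: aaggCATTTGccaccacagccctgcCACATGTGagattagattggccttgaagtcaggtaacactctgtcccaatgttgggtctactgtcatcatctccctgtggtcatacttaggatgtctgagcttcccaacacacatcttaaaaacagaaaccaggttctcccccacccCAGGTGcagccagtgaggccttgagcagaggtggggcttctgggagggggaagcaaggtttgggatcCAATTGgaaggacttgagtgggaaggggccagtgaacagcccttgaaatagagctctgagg
Ooep: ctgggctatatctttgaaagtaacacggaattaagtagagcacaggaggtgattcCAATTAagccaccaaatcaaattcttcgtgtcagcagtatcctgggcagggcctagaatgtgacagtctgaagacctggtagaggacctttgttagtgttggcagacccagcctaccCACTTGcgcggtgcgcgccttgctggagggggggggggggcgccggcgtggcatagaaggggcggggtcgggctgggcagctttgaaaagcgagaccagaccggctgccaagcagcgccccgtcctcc
Nlrp5: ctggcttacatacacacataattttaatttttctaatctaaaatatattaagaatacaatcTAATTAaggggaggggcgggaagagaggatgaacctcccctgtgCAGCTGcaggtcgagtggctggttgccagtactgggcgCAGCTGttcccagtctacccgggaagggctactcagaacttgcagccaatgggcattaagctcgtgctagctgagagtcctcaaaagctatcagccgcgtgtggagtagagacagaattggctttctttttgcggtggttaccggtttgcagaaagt

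The Padi6 window holds 2 E-boxes, 166 and 78 bases before the start, and TAATTG on the other strand 8 bases after it. The Khdc3 window holds 5 E-boxes, 2 of which overlap, and neither homeobox motif. Ooep has 1 E-box, 78 bases before the start, and TAATTG on the other strand 195 bases before it. Nlrp5 has 2 E-boxes, 145 and 107 bases before the start, and TAATTA 189 bases before it. A second RefSeq start of Nlrp5, not printed, has 2 E-boxes, 186 and 172 bases before it, and neither homeobox motif. The RefSeq windows of the remaining members held 3 and 4 E-boxes at the 2 starts of Tle6 and no match for Nlrp2. Among 32851 windows of the same length, 72.3% hold an E-box and 12.4% hold TAATTG or TAATTA. A match is a string of letters and was not measured as a binding site.

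All 6 members were among the more abundant mRNAs of both columns, and they did not move together. Padi6 was higher under 20% O2 by 1.80-fold on the RPM + 1 scale, Khdc3 was higher under 5% O2 by 1.76-fold, and the other 4 members lay between these. As deposited, 3 members were higher under 5% O2 (Khdc3, Nlrp2 and Nlrp5) and 3 were lower (Padi6, Tle6 and Ooep), with a median log2 difference of -0.0086. With the columns scaled by the median ratio of all genes, by quantile normalization or by the reads on genes, 2 were higher and 4 lower, with medians of -0.33, -0.17 and -0.20. The median over the 14704 genes tested, those whose mean over both columns reached 1 RPM, was 0.26. No member was at least 2-fold higher under 5% O2, a size reached by 18.7% of those genes, and none was at least 2-fold lower, reached by 9.22%, whereas 1 of 6 (Padi6) was with the median-ratio and reads-on-genes scalings, which put 13.9% and 12.2% of all genes there. Relative to the median gene, 2 members (Khdc3 and Nlrp2) lay above and 4 below. These counts of 2 and 4 were the same with quantile normalization, while scaling a column by 1 factor can hardly move them.

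**Figure D1:**
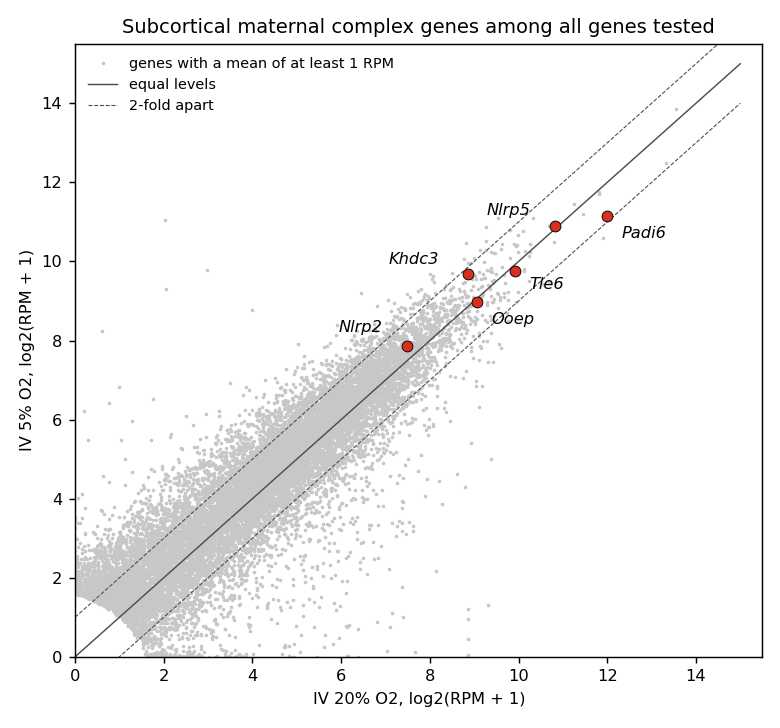
Level of each gene tested under 20% O2 (x axis) and IV 5% O2 (y axis), both as log2(RPM + 1), with the 6 members as red points. The solid line marks equal levels and the dashed lines 2-fold. All 6 members lie between the dashed lines, with Padi6 close to the lower one and Khdc3 towards the upper one.

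Of the core members, Nlrp5, an NLR-family protein, lies on chromosome 7 (23385889 to 23441922, plus strand) and had 1905 RPM under 5% O2 against 1823 RPM under 20% O2. It was 11th and 9th among all genes of its column by RPM. The log2 difference, IV 5% O2 minus IV 20% O2, was 0.06 (interval 0.05 to 0.08) as deposited, but it was -0.26, -0.17 and -0.13 with these 3 scalings, in the same order. Its direction therefore depends on the scaling. Relative to the median gene it lay at -0.19. Nlrp5 is the member with the most repeated sequence, as 10.9% of its exonic windows of 50 bases and 2.56% of those of 100 bases occur elsewhere in the genome.

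Ooep, an RNA-binding-type KH-domain protein of the core, lies on chromosome 9 (78376109 to 78378725, minus strand). It had 502 RPM under 5% O2 against 531 RPM under 20% O2, a log2 difference of -0.08 (interval -0.10 to -0.06). Tle6, a member of the Groucho/TLE corepressor family, lies on chromosome 10 (81590904 to 81601073, minus strand) and had 869 RPM under 5% O2 against 972 RPM under 20% O2. Its log2 difference was -0.16 (interval -0.18 to -0.15). Both were lower under 5% O2 with each of the 3 scalings too, at -0.40, -0.17 and -0.27 for Ooep and -0.48, -0.45 and -0.35 for Tle6 with median-ratio, quantile and reads-on-genes scaling. The 3 core mRNAs thus differed between the columns by at most 1.12-fold as deposited. The ratio of Ooep to Tle6 shifted by 0.08 on the log2 scale (interval 0.05 to 0.11), the smallest shift of all pairs of members, but by 0.28 with quantile normalization, where Nlrp5 to Ooep had the smallest (-0.0090).

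Khdc3, the KH-domain protein that joins the core through NLRP5, lies on chromosome 9 (73101836 to 73104438, plus strand), 5.27 Mb from Ooep. It had 814 RPM under 5% O2 against 463 RPM under 20% O2. The log2 difference was 0.81 (interval 0.79 to 0.84), the highest among the members, and 74.9% of the genes tested had a lower one. Its place by RPM was 57th under 5% O2 and 151st under 20% O2. With the 3 scalings the difference was 0.49, 0.66 and 0.63. Gm20509, an annotated gene on the same strand, shares 790 exonic bases with Khdc3, which is 38.5% of the Khdc3 exons, so reads in those exons cannot be told apart. Gm20509 had 540 RPM under 5% O2 against 326 RPM under 20% O2, a log2 difference of 0.73.

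Padi6, a peptidylarginine deiminase family protein, lies on chromosome 4 (140727355 to 140742643, minus strand). It had 2266 RPM under 5% O2 against 4072 RPM under 20% O2, where only 2 genes of the table had more. In IV 5% O2 it was 7th. The log2 difference was -0.85 (interval -0.85 to -0.84), which is -1.10 from that of the median gene, and 11.4% of the genes tested had a lower one. It passed 2-fold with median-ratio scaling (-1.16) and with reads on genes as the depth (-1.03) but not with quantile normalization (-0.57). None of the exonic windows of Padi6, and none of those of Khdc3, occurs elsewhere in the genome at 50 or 100 bases.

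Nlrp2, the NLR-family member that is also tied to imprinting in the offspring of deficient mothers, lies on chromosome 7 (5298547 to 5351035, minus strand), 18.0 Mb from Nlrp5. It was the least abundant member, with 230 RPM under 5% O2 against 178 RPM under 20% O2, at places 670 and 759 of the columns. The log2 difference was 0.37 (interval 0.33 to 0.41) as deposited, and 0.05, 0.11 and 0.18 with the 3 scalings. Gm5065 lies across its start on the opposite strand but shares no exonic base with it.

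**Figure D2:**
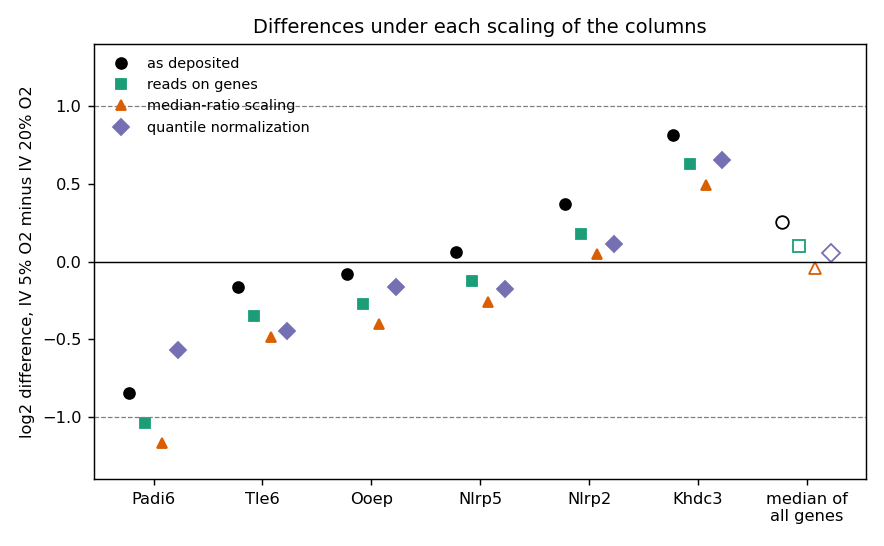
Log2 difference, IV 5% O2 minus IV 20% O2, of each member under 4 scalings of the columns (filled symbols), with the median of all genes tested (open symbols). Dashed lines mark 2-fold. Khdc3 stays highest and Padi6 lowest throughout, Nlrp5 changes sign with the scaling, and Padi6 passes 2-fold under 2 of the scalings.

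Levels of different members were compared per kb of annotated exon. Padi6 was the highest in both columns, with 895 RPM per kb under 5% O2 and 1608 under 20% O2. In IV 5% O2 it was followed by Khdc3 (397), Nlrp5 (393), Tle6 (281), Ooep (235) and Nlrp2 (65.5). In IV 20% O2 the order was Nlrp5 (376), Tle6 (315), Ooep (248), Khdc3 (226) and Nlrp2 (50.7), so Khdc3 was at place 2 in one column and 5 in the other. With the longest coding transcript as length it was at places 3 and 4, and by RPM without length at 4 and 5. The closest neighbours were Khdc3 and Nlrp5 under 5% O2, with a ratio of 1.01 (interval 1.00 to 1.02). Their order turned when the length of the longest coding transcript was used in place of all exons (ratio 0.892), as did that of Ooep and Khdc3 under 20% O2 (1.10 and 0.902). The span from Padi6 to Nlrp2 was 13.7-fold under 5% O2 but 31.7-fold under 20% O2.

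**Figure D3:**
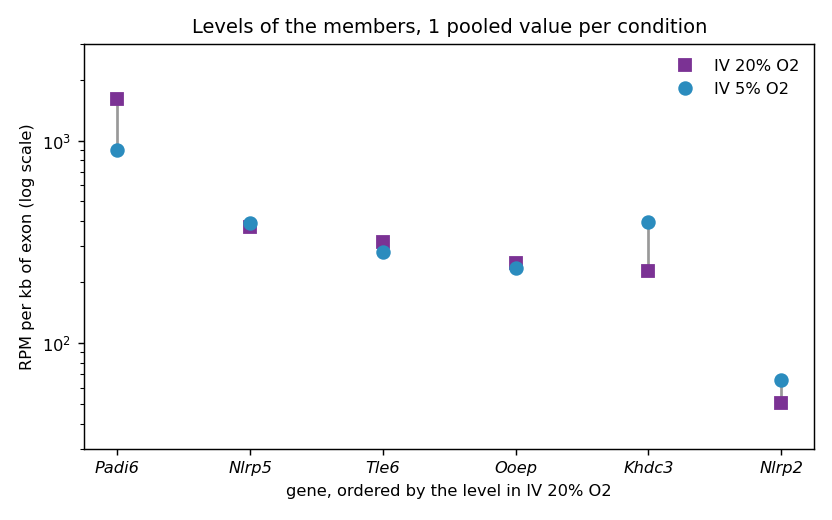
RPM per kb of exon of each member under 5% O2 (circles) and IV 20% O2 (squares) on a log axis, with 1 pooled value per condition and no error bars. Padi6 lies above all others in both columns, Khdc3 lies next to Nlrp5 under 5% O2 but below Ooep under 20% O2, and Nlrp5, Tle6 and Ooep lie almost level between the columns.

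Summed over the 6 members, the level was 6585 RPM under 5% O2 against 8038 RPM under 20% O2, a log2 difference of -0.29 (interval -0.29 to -0.28). With the 3 scalings it was -0.61, -0.30 and -0.48. Per kb the sums were 2267 and 2824, a log2 difference of -0.32. The members took 0.794% of the reads on genes under 5% O2 and 1.10% under 20% O2. Padi6 made up 39.5% of the summed RPM per kb under 5% O2 and 57.0% under 20% O2, whereas Khdc3 made up 17.5% and 7.99%. The share of Nlrp5 was 17.3% and 13.3%, that of Tle6 12.4% and 11.1%, that of Ooep 10.4% and 8.79%, and that of Nlrp2 2.89% and 1.79%. In the columns as deposited, the share of Padi6 was higher under 20% O2 and those of the other 5 members were lower. With quantile normalization the log2 difference of Tle6 (-0.45) was below that of the summed RPM without length (-0.30). On that measure the share of Tle6 was therefore higher under 20% O2 too, while shares per kb are not given for that scaling.

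**Figure D4:**
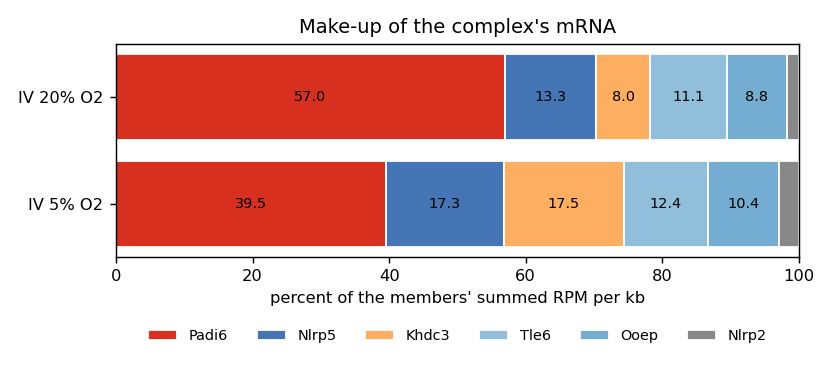
Share of each member in the members' summed RPM per kb of exon, as a percent, under 5% O2 and IV 20% O2. The Padi6 segment covers 39.5% and 57.0%, and the Khdc3 segment 17.5% and 7.99%.

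Ratios of members within a column do not depend on the depth used to scale it, so they were compared for all 15 pairs. The Khdc3 to Padi6 ratio of RPM was 0.359 under 5% O2 and 0.114 under 20% O2, a shift of 1.66 on the log2 scale (interval 1.64 to 1.68), or 3.16-fold. The Nlrp2 to Padi6 ratio was 0.101 and 0.0437, a shift of 1.22 (interval 1.18 to 1.25), or 2.32-fold. Intervals of ratio shifts are Wald intervals of the log odds ratio. As deposited, these 2 of the 15 pairs had a ratio that shifted by at least 2-fold. The share of all gene pairs that shift this far was not computed, so nothing is read from this count. Khdc3 to Tle6 followed with 0.937 and 0.476, a shift of 0.98 (interval 0.95 to 1.01). Each of the 15 intervals left out 0, but with this many reads they are narrow, and they cover counting error only. As deposited, the ratio to Padi6 was higher under 5% O2 for all 5 other members, by 1.61-fold (Tle6) to 3.16-fold (Khdc3). Quantile normalization, which is no single factor per column, gave shifts of 1.22 for Khdc3 to Padi6, 0.68 for Nlrp2 to Padi6 and 1.11 for Khdc3 to Tle6. It brought the ratios to Padi6 of Ooep, Nlrp5 and Tle6 down to shifts of 0.40, 0.39 and 0.12, from 0.76, 0.91 and 0.68. The shift of Nlrp5 to Ooep turned from 0.14 to -0.0090.

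Proteins that bind the complex or share the lattices with PADI6 were followed as a list of 6 genes, all of which were tested. None was at least 2-fold higher under 5% O2, beside 18.7% of all genes tested, and 1 was at least 2-fold lower, beside 9.22%. The median log2 difference was -0.25 beside 0.26 over all genes, and -0.57, -0.49 and -0.44 with the 3 scalings. Zbed3, a BED-type zinc finger protein that binds the complex, had 715 RPM under 5% O2 against 1634 RPM under 20% O2, a log2 difference of -1.19 (interval -1.21 to -1.18). Of its exonic windows, 20.1% at 50 bases and 19.6% at 100 bases occur elsewhere in the genome. Nlrp4f, an NLR-family partner, had the highest log2 difference of the list, with 1397 RPM under 5% O2 against 960 RPM under 20% O2, or 0.54 (interval 0.53 to 0.56), and 0.22, 0.21 and 0.35 with the 3 scalings. The remaining 4 were lower under 5% O2 as deposited. Nlrp14, which stabilises UHRF1 in the oocyte, had 3440 and 3607 RPM (log2 difference -0.07, and -0.39, 0.23 and -0.26 with the 3 scalings). Uhrf1, the maintenance methylation cofactor, had 601 RPM under 5% O2 against 869 RPM under 20% O2, a log2 difference of -0.53 (interval -0.55 to -0.52). Ube2d3, a ubiquitin-conjugating enzyme, lay at -0.24, and Cfl1, the actin-severing cofilin, at -0.25. Uhrf1 and Cfl1 hold repeated sequence too, in 22.5% and 18.1% of their exonic windows of 50 bases and 4.62% and 4.71% of those of 100 bases. Nlrp4f and Nlrp14 are counted among the NLRP relatives too.

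The relatives of PADI6 were nearly absent. Per kb, Padi6 exceeded Padi1, the highest of its 4 relatives, by 510-fold under 5% O2 and 2903-fold under 20% O2. Over all 4, with no filter on low values, the median log2 difference was 0.80. The filter left 3, without Padi2 (0.242 and 0.391 RPM), and Padi3 passed it only through the 5% O2 column, so nothing is read from their count. Padi1 had 6.58 RPM under 5% O2 against 2.08 RPM under 20% O2 (log2 difference 1.30), and Padi3 had 4.58 and 0.196 RPM (2.22), which rest on 605 and 8 reads. With a pseudocount of 5 both were under 2-fold (0.71 and 0.88), and with one of 0.1 they were at 1.62 and 3.98. Padi4, which lies 3221 bases from Padi6 on the same strand, had 1.63 and 1.13 RPM. Its log2 difference of 0.31 was -0.01 with quantile normalization.

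Tle6 exceeded each of its 4 relatives in the table per kb, by 11.1-fold over Tle5 under 5% O2 and by 16.1-fold over Tle4 under 20% O2. Tle5, a short member of the family that lies 24.5 kb from Tle6, had 84.2 RPM under 5% O2 against 21.3 RPM under 20% O2, a log2 difference of 1.94 (interval 1.89 to 2.09). It was the 1 TLE relative at least 2-fold higher, beside 18.7% of all genes. The median log2 difference of the 4 was 0.59, but 0.31, 0.40 and 0.44 with the 3 scalings and 0.42 with a pseudocount of 5. Tle4 had the lowest difference at -0.10, with 104 and 112 RPM, and was at -0.42, -0.30 and -0.29 with the 3 scalings. Tle2 is not among the rows analysed here.

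The KH-domain relatives of Ooep and Khdc3 had a median log2 difference of -0.56 over 4 genes, with none at least 2-fold higher under 5% O2 (18.7% of all genes) and 1 at least 2-fold lower (9.22%). With the median-ratio scaling the median was -0.88. Khdc1c had 145 RPM under 5% O2 against 293 RPM under 20% O2, a log2 difference of -1.01 (interval -1.05 to -0.98). Dppa5a, which lies 7931 bases from Ooep, had 181 and 277 RPM, a log2 difference of -0.61. Khdc1b had the highest log2 difference of the list, with 1889 and 1636 RPM, a value of 0.21 that turned to -0.11 under the median-ratio and -0.01 under the quantile scaling. Per kb it stood above both members in both columns, at 845 under 5% O2 and 732 under 20% O2. Dppa5a, at 292 and 447 per kb, stood above Ooep in both columns and above Khdc3 under 20% O2. With a pseudocount of 5 the Khdc1c difference was -0.99. Reads of these relatives are uncertain, as 30.3% to 63.3% of the exonic windows of 50 bases in Khdc1a, Khdc1b, Khdc1c and Dppa5a occur elsewhere, compared with 1.99% in Ooep and 0 in Khdc3.

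Among the NLRP relatives, 11 of 18 genes are in the table and 10 were tested. None was at least 2-fold higher, beside 18.7% of all genes, or lower, beside 9.22%, and the median log2 difference of 0.23 was close to that of all genes (it was -0.04, 0.07 and 0.09 with the 3 scalings). As deposited, the values ran from -0.07 for Nlrp14 to 0.60 for Nlrp9c, an oocyte-expressed relative with 218 RPM under 5% O2 against 144 RPM under 20% O2. With the 3 scalings Nlrp9c was at 0.28, 0.36 and 0.41. Per kb, Nlrp5 stood above 10 of the 11 in both columns and below Nlrp14, which was at 973 and 1020. Nlrp2 stood above 5 of them under 5% O2 and above 4 under 20% O2.

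**Figure D5:**
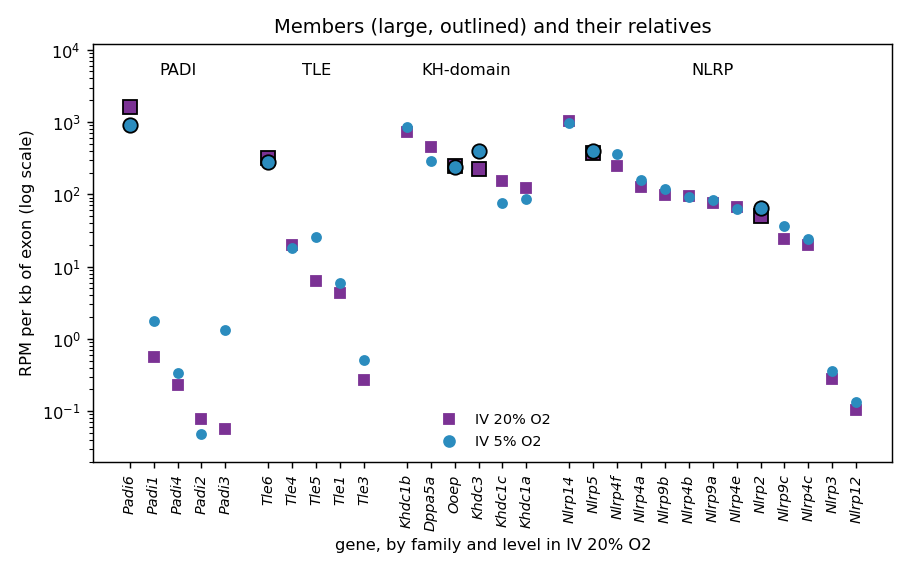
RPM per kb of exon on a log axis for the members (large, outlined symbols) and the relatives of their families in the table (small symbols), under 5% O2 (circles) and IV 20% O2 (squares). Padi6 and Tle6 stand above all their relatives, while Khdc1b and Nlrp14 stand above the members of their families. Dppa5a stands above Ooep under both conditions and above Khdc3 under 20% O2.

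For each member the gene nearest in level over both columns was named, by the distance between their log2(RPM + 1) values. Likeness over 2 columns is a description of levels only. Nlrp2 had the closest one, Dipk2a, at a distance of 0.0059, with 229 and 178 RPM. Khdc3 was nearest to Usp19 (777 and 474 RPM, distance 0.0746), Ooep to Nsf (468 and 538 RPM, distance 0.102), Tle6 to Mtmr14 (911 and 913 RPM, distance 0.114) and Nlrp5 to Khdc1b (distance 0.156). Padi6 had no gene as near. Its closest was Gdf9, an oocyte growth factor, with 2346 RPM under 5% O2 against 2805 RPM under 20% O2, at a distance of 0.540.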

How the data were processed

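RNA-seq of class IV oocytes was used, with 2 libraries for IV 5% O2 and 2 for IV 20% O2. The RRBS and PBAT libraries hold no expression values and were not used. Reads were aligned by the authors to mm10 with TopHat2 (2.0.9, per the submitters' processing notes), quantified them over merged exons in SeqMonk and deposited log2 values, 1 column per condition. How a condition's libraries were pooled is not given in the sources used here. The deposited values are named as RPKM, but 99.98% of the linear values of each column were whole multiples, within 0.1 of a read, of what 1 read is worth, the same for every gene. They were therefore read as log2 RPM with no correction for length, and genes listed at 0.9 of a read were set to 0. The table holds 1 further value column, which matches no sample of the series and was left out, and its other columns hold positions.

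Differences were taken on log2(RPM + 1), which understates the change of low genes, for genes whose mean over the columns reached 1 RPM, and 2-fold was called apart. Where a name had several rows (18 names), the one highest on average stood for it. A count of 0 allows 3 reads, which is 0.0227 RPM for IV 5% O2 and 0.0734 RPM for IV 20% O2, for counting error only. Exonic lengths came from GENCODE annotation of GRCm38, matched by coordinates for 16401 of 16591 rows. Promoter windows are those of RefSeq, found for all 6 members. Differences in ratios have 95% Wald intervals of the log odds ratio. The members and lists were chosen with earlier results of these data known. Genes named were the members, the gene nearest to each, and, of each list, the genes 2-fold apart and the highest and lowest. Other genes of a list were named after their values were seen. The scripts were tested on simulated reads. The alternatives were median-ratio and quantile scaling, pseudocounts of 0.1 or 5, a filter at 5 RPM or none, reads on genes as the depth, rows summed by name, RPM without length and, added after the data were seen, the longest coding transcript. The tools were matplotlib 3.10.9, numba 0.67.0, scipy 1.17.1, pandas 2.3.3 and numpy 2.4.6 under Python 3.11.15.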

Additional observations from a re-analysis of the deposited data

How the results depend on the processing

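No paired analysis was possible because each condition has 1 pooled column, and for the same reason no library could be left out. Pseudocounts, filters on low values and summed rows left the direction of all 6 members and every count over them as they were. Scaling moved them. With median-ratio, quantile and reads-on-genes scaling, in that order, the log2 difference was -0.256, -0.174 and -0.125 for Nlrp5, which turned its direction, -0.400, -0.165 and -0.269 for Ooep, -0.482, -0.449 and -0.351 for Tle6, 0.495, 0.656 and 0.626 for Khdc3, -1.16, -0.567 and -1.03 for Padi6 and 0.0503, 0.112 and 0.181 for Nlrp2. The median of the members was -0.328, -0.170 and -0.197.
The summed level moved to -0.607, -0.299 and -0.476, and Padi6 made 1 member at least 2-fold lower with the first and the last, where 13.9% and 12.2% of all genes were. The summed level per kb was -0.288 without length and -0.283 with the longest coding transcript. Other values that turned their direction were those of Khdc1b (-0.112 with median-ratio and -0.0069 with quantile scaling), Nlrp14 (0.230) and Padi4 (-0.0120) with quantile scaling, the medians of the NLRP relatives (-0.0429) and of the other maternal-effect genes (-0.0559) with median-ratio scaling, and the shift of the Nlrp5 to Ooep ratio with quantile scaling (-0.0090). The other 14 ratio shifts kept their direction there, and the other depths cannot move them. The median of all genes tested was -0.0404, 0.0558 and 0.102 under the 3 scalings, and the share of higher calls among genes 2-fold apart was 45.6%, 48.6% and 56.5% beside 67.0% as deposited. With a filter at 5 RPM no PADI relative was left and no median could be had.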

Other observations

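Other maternal-effect genes, whose products also act in the egg or early embryo but lie outside the complex, were followed as a list of 14, all of which were tested. As deposited, the median log2 difference of 0.26 equalled that of all genes to 2 decimals. With median-ratio, quantile and reads-on-genes scaling it was -0.06, 0.11 and 0.07. Btg4, an adaptor of the deadenylase that clears maternal mRNA, was the 1 gene at least 2-fold higher (18.7% of all genes were), with 632 RPM under 5% O2 and 222 RPM under 20% O2, a log2 difference of 1.51 (interval 1.48 to 1.54). None was at least 2-fold lower, beside 9.22% of all genes. Ago2, the Argonaute slicer, had the lowest log2 difference, -0.31 (interval -0.38 to -0.25), with 49.3 and 61.3 RPM. With the 3 scalings it was at -0.62, -0.50 and -0.49.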
